A study of Mus musculus with 6 samples.

Results

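Processed pseudogenes are copies of spliced mRNAs that were reverse transcribed and inserted back into the genome, so they lack the introns of the coding gene they came from and usually lack its promoter. The 202 genes described here are the autosomal genes of the types processed_pseudogene (173) and transcribed_processed_pseudogene (29) in GENCODE M21 whose expected count averaged 20 or more over 6 libraries of mouse embryonic stem cells (ESCs). They were taken from 9193 autosomal processed pseudogenes and 55450 genes listed in all. An expected count is an estimated number of reads per gene, in which a read that matches several genes is usually divided among them. The members were chosen by their mean expected count over all 6 libraries and by gene type and chromosome, and not by the difference between the genotypes.

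The study set 3 ESC libraries of genotype Hoxd12-/- against 3 labelled Wild Type. Hoxd12 encodes a HoxD-cluster transcription factor known for its part in limb patterning. All cells were of strain C57BL6, were derived from embryos at E3.5 and grew in mES+2i medium, a medium for naive ESCs that holds inhibitors of the MEK and GSK3 kinases. RNA was taken with Trizol and made into libraries with a stranded mRNA kit. Nothing in the labels tells if the libraries within a genotype were separate clones or cultures. Each p-value thus sets the difference between the groups against the spread of these libraries, and that spread may be technical.

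As background, most processed pseudogenes derive from abundant housekeeping transcripts, above all those of ribosomal proteins, because mRNAs of the germ line and early embryo are copied by the reverse transcriptase of LINE-1 elements. A young copy can match its coding gene base for base. Reads that fall in the shared stretches cannot then be placed in the pseudogene or in the coding gene by their sequence, and the estimation step decides how they are divided. A count on such a pseudogene therefore is not proof that the locus is transcribed.

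The libraries held 5412577 to 6280934 counts in total. Hoxd12 was listed at 0 counts in all 6 of them, so the genotype labels could not be checked against it. All 10 ESC markers were found, with a summed level of 9150 to 9660 CPM (counts scaled to library size) in the knockout and 9050 to 9680 CPM in the wild-type libraries. Markers of feeder fibroblasts summed to 5.29 to 7.08 CPM in the knockout and 7.98 to 10.3 CPM in the wild type, with 5 of 10 at 0 in every library (Col3a1, Postn, Lum, Dcn and Twist2). Markers of primitive endoderm summed to 5.86 to 11 against 3.42 to 6.46 CPM, and those of trophectoderm to 13.8 to 14.3 against 15.8 to 16.4 CPM. The 5 genes of the 2-cell-like state summed to 1.39 to 2.72 CPM in the knockout and 18.9 to 25 CPM in the wild type. The part of these marker differences in the results on pseudogenes was not tested.

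The following pairs show how close the members are to their coding genes. Each is a stretch of 120 bases from the GENCODE M21 transcripts, 5′ to 3′ on the strand of the gene, with capitals at the bases that differ between the pair. They are shown because the counts of these members differed between the groups while their sequences range from identical to clearly separable. Gm4739 (chr10:26108275-26108394 in GRCm38, plus strand) copies Hmgb2, a high mobility group protein that bends DNA. It differs from the Hmgb2 coding sequence at 2 of 633 aligned bases, both of them in this stretch.
Gm4739: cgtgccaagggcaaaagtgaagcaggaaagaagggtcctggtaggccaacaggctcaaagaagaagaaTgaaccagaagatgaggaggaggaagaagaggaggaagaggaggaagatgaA
Hmgb2: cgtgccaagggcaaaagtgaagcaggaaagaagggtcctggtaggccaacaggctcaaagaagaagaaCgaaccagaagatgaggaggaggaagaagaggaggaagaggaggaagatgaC

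Gm15772 (chr5:3236599-3236718, plus strand) copies Rpl26, a protein of the large ribosomal subunit. It differs from it at 2 of 438 aligned bases.
Gm15772: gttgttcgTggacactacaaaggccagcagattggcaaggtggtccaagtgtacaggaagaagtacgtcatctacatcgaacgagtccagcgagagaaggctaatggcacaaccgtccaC
Rpl26: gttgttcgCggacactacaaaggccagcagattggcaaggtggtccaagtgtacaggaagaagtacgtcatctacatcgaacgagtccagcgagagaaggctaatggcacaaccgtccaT

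Gm13456 (chr2:40556559-40556678, plus strand) copies Eef1a1, the elongation factor that brings aminoacyl-tRNA to the ribosome. It carries 19 differing bases and 26 gap positions in an alignment of 1390, and 4 of the differing bases lie in this stretch.
Gm13456: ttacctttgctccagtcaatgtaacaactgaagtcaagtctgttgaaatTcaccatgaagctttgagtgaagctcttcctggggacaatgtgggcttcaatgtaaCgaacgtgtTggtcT
Eef1a1: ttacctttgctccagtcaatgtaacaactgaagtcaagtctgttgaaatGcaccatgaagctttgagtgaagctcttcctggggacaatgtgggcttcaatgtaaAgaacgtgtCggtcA

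Gm11400 (chr11:3150695-3150814, minus strand) is related to Eef2, the elongation factor that moves the ribosome along the mRNA. It had no close coding gene by the limits used here and carries 43 differing bases and 14 gap positions in an alignment of 817, of which 11 differing bases lie in this stretch.
Gm11400: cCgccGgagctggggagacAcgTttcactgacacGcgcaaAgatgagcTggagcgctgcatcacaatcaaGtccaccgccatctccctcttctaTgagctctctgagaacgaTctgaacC
Eef2: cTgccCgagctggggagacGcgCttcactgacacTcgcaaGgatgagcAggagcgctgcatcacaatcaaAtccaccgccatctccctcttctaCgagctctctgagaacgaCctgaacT

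Tpt1-ps3 (chr6:99878215-99878334, minus strand) copies Tpt1, the translationally controlled tumour protein. It matches the coding sequence over all 519 bases, so its stretch holds no capitals.
Tpt1-ps3: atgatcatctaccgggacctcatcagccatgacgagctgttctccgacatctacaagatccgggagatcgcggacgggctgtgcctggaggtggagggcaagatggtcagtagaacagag
Tpt1: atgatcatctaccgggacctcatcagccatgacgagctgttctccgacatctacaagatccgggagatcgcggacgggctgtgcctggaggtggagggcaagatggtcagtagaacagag

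The same closeness held for most members. A coding gene was called close when its transcript matched the pseudogene with at least 95% identity over at least 80% of its length. Of the 202 members, 159 had a close coding gene, of 130 distinct genes in all, with a median identity of 99.68%, and 43 had none. Over their full length, 48 members were identical to a coding gene. The names of 42 members end in -ps, which gave the parent gene for 39 of them, and that parent was also the nearest coding gene by sequence in 39 of 39. Most members, 172, had a single exon. Cut into overlapping 50-mers, the median member shared 85.2% of them with transcripts of other genes, and 56 members shared all of them.

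Most counts were fractional, as divided reads give. Only 5.12% of the members' count values were whole numbers, to within 0.005, against 69.7% for the 10623 protein-coding genes with a mean of 20 or more. In 3 pairs of members with identical sequences the counts were equal in every library: Gm11518 and Rpl27-ps3, Gm13370 and Gm10240, and Gm13841 and Gm8210. An equal pair therefore holds a single measurement. Rps4l was the contrary case among the abundant members. Its nearest coding gene is Rps4x, a small-subunit ribosomal protein, at 79.73% identity, it shared 14.9% of its 50-mers, and its counts were whole in all 6 libraries.

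Together the members took 3.26%, 3.29% and 3.26% of all counts in the knockouts, against 3.30%, 3.36% and 3.32% in the wild types. Every wild-type library lay above every knockout library, by little. Per transcript length, their share of TPM (transcript levels scaled to length and depth) was 8.41% to 8.68% in the knockout and 8.41% to 8.56% in the wild type, with overlapping groups. The mean expected count ran from 20.8 to 17980 with a median of 122. It reached 1000 in 39 members and stayed under 100 in 90, and the 10 most abundant members held 48.7% of the members' counts.

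Close to the threshold, Gm12070, a copy of Gapdh, had 22.66, 31.41 and 22.93 counts in the 3 knockouts against 23.77, 8.09 and 15.93 in the 3 wild types. Gm8956 had 13.79, 22.16 and 22.79 against 20.33, 22.05 and 23.70. Just outside it, 2210409E12Rik had 17.57, 2.52 and 8.60 against 25.79, 35.27 and 28.24, and Gm5786 had 23.69, 12.97 and 15.11 against 29.72, 22.75 and 13.02. The knockout mean was under 20 in 7 members and the wild-type mean in 5.

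The knockout and wild-type groups were compared with edgeR's quasi-likelihood test on rounded expected counts over 12891 genes, with p-values adjusted by Benjamini-Hochberg over all of them and called below 0.05. All log2 fold changes are knockout minus wild type. Of 200 members tested, 20 were higher in the knockout, where 12.1% of all genes tested were. Lower in the knockout were 38, which is 19.0% beside 14.4% of all genes. In both directions together 29.0% of the members were called and 26.5% of all genes. These shares are near the background. Dynlt1-ps1 and Gm13835 did not pass the filter on low counts. The median log2 fold change of the tested members was −0.08 and that of all genes 0.02. On TPM values, which scale the libraries differently, limma called 21 members higher and 20 lower, beside 8.59% and 5.81% of all genes (14.4% in both directions). With each equal-count pair taken once, a setting added after seeing the data, edgeR called 20 higher and 36 lower of 197. DESeq2 called 15 higher and 29 lower, beside 5.44% and 9.99% of all genes (15.4% in both directions).

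Most changes were small. The median absolute log2 fold change was 0.27 in the tested members, 0.20 in all genes and 0.42 in the 58 called members, and 3 members rose and 3 fell by 2-fold or more among those called. CPM values did not overlap between the groups in 67 of the 200 members, which is 33.5% beside 39.7% of all genes, and 51 of these 67 were called. The median biological coefficient of variation, the spread that edgeR estimates beyond counting error, was 9.26% in the members and 6.44% in protein-coding genes with a mean of 20 or more, sets that were not matched for abundance.

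**Figure D1:**
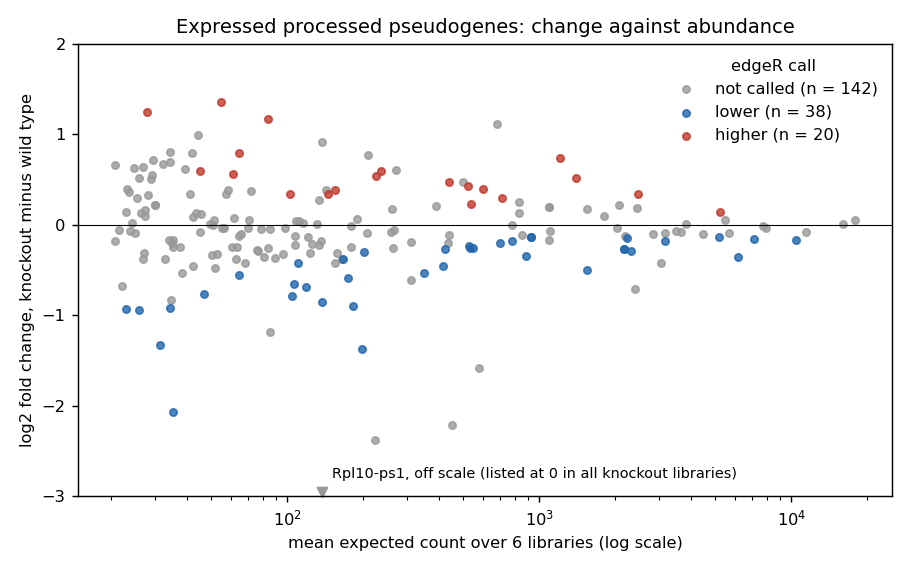
Log2 fold change (knockout minus wild type, edgeR) of the 200 tested members against their mean expected count on a log axis, a point for each member, coloured by call. The 20 higher and 38 lower members have mean counts of 27.7 to 5205 and 22.9 to 10443, and the 3 most abundant members are not called; Rpl10-ps1, listed at 0 in all knockout libraries, is marked at the lower edge.

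The most abundant members were copies of ribosomal protein mRNAs, and their levels differed little between the groups. Gm10275, a copy of Rpl12, had 19212.30, 17001.48 and 19073.22 counts in the 3 knockouts against 16748.52, 18220.12 and 17625.62 in the 3 wild types. Its groups overlapped, and its log2 fold change was 0.05 (edgeR adjusted p = 0.419). Per transcript length its level was 5790 ± 106 TPM in the knockout and 5170 ± 52.6 TPM in the wild type (SD, n = 3), beside 208 ± 13 and 202 ± 9.53 TPM for Rpl12 itself. The estimation thus gave the pseudogene 93.3% to 94.1% of the counts that the pair held. Gm15500, a copy of Rpl5, held 96.3% to 97.0% of its pair's counts, and Gm7536, a copy of Rpl27a, 63.7% to 69.3%. In all, 11 members had more counts than their close coding gene in every library.

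Gm15772 was the most changed of the 8 most abundant members. Its counts were 5420.19, 5165.77 and 5626.15 in the knockout and 6313.09, 7297.17 and 6927.23 in the wild type. All knockout libraries were lower than all wild-type libraries, with a log2 fold change of −0.36 (SE 0.05, edgeR adjusted p = 9.19e-07). Rpl26 fell as well, by 0.17 on the log2 scale (edgeR adjusted p = 0.00546), and the sum of both fell by 0.25 (adjusted p = 2.79e-05). Rps2-ps10, a copy of the small-subunit protein gene Rps2, had a log2 fold change of −0.17 (edgeR adjusted p = 0.007) while Rps2 itself had 0.08 (adjusted p = 0.133). The sum of Rps2 with all its close members, Rps2-ps10 among them, was at 0.01 (adjusted p = 0.891). Rps4l, with its whole counts, had 7090, 6221 and 6919 counts against 7099, 7629 and 7544, and fell by 0.16 (edgeR adjusted p = 0.00727), a call lost without wild-type replicate 3 and on TPM values. The call of Rps2-ps10 was lost on TPM values and when knockout replicate 3 or either of wild-type replicates 2 and 3 was left out. Rps23-ps1 (−0.04, adjusted p = 0.569) and Rps16-ps2 (−0.01, adjusted p = 0.905) did not pass edgeR's test, while their parents Rps23 and Rps16 fell by 0.24 and 0.13 (adjusted p = 0.001 and 0.0389).

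Over all 56 members close to a ribosomal protein gene, 1 rose and 9 fell, beside 12.1% and 14.4% of all genes. With members of equal counts taken once 7 fell, and the median log2 fold change of the 56 was −0.08. Among their 37 distinct coding genes 0 rose and 24 fell (median −0.15). On log2(TPM + 1), where all genes shifted up, limma called 5 members higher and 5 lower (median 0.03, or −0.07 relative to all genes), and 4 coding genes higher and 12 lower. The member that rose was Rps3a2, a copy of Rps3a1, another protein of the small subunit. It had 2971.74, 2419.75 and 2911.43 counts in the knockout and 2086.57, 2259.34 and 2096.60 in the wild type, without overlap, and rose by 0.34 (SE 0.04, edgeR adjusted p = 3.66e-07). Rps3a1 was at 0.00 (adjusted p = 0.959). The sum of Rps3a1, Rps3a2 and another close member, Rps3a3, was at 0.03 (adjusted p = 0.618). The largest fall among the 9 was that of Rpl36-ps12 at −0.45 (adjusted p = 1.22e-05), where Rpl36 fell by 0.28 (adjusted p = 0.00272).

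The members with the largest called rises were mostly of low or middling abundance. Gm48348, which shared no 50-mer with any other gene and had no close coding gene, had 79.51, 56.17 and 100.88 counts in the 3 knockouts against 38.03, 29.12 and 23.46 in the 3 wild types. The lowest knockout library lay above the highest wild-type library, with a log2 fold change of 1.36 (SE 0.20, edgeR adjusted p = 3.71e-06). Gm11400, the separable relative of Eef2 shown above, had 41.03, 24 and 53.01 counts against 12.04, 18.02 and 18.00, again without overlap, and rose by 1.25 (SE 0.28, adjusted p = 0.00106). Its wild-type mean of 16 counts was under 20, so it reached the threshold only through the knockout, where it was high. It lies in an intron of Sfi1, a centrosomal protein gene read on the same strand, which rose by 0.52 (edgeR adjusted p = 6.34e-07). Sequence from that intron in unspliced RNA would count for Gm11400, and its part was not tested.

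Gm13456, the Eef1a1 copy, had 106.63, 90.33 and 153.24 counts in the knockout and 50.71, 64.07 and 36.87 in the wild type. The groups did not overlap, and it rose by 1.17 (SE 0.17, edgeR adjusted p = 4.23e-06). Eef1a1 rose by 0.27 (adjusted p = 2.21e-07), at 7080 ± 606 TPM against 5360 ± 180 TPM (SD, n = 3). Gm13456 shared 57.4% of its 50-mers with other genes. It was assigned 0.139% to 0.187% of the pair's counts in the knockout and 0.0621% to 0.103% in the wild type. The part of the division of reads in its rise was not tested. Tpt1-ps3 had 1454.80, 1281.44 and 1853.03 counts against 906.53, 960.46 and 820.71, with every knockout library above every wild-type library, and rose by 0.74 (SE 0.08, edgeR adjusted p = 5.48e-05). Tpt1 itself was at 0.00 (adjusted p = 0.968), and the sum of the pair at 0.06 (adjusted p = 0.253). The pseudogene was assigned 10.3% to 13.4% of the counts of the pair in the knockout and 6.58% to 7.63% in the wild type. Since the sequences are identical over the length of the pseudogene, a rise at its locus and a change in how reads were divided cannot be told apart.

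The other 4 of these were Gm19680 (0.79), Gm7334 (0.60), Gm7488 (0.59) and Ube2n-ps1 (0.56). Gm19680 is 99.93% identical to Paox, a polyamine oxidase gene that was at −0.09 (edgeR adjusted p = 0.495), and the summed pair was at 0.10 (adjusted p = 0.413), so its call was not kept in the sum. Gm7334 copies Btg3, an antiproliferative protein gene, and the summed pair rose by 0.36 (edgeR adjusted p = 0.00545). Gm7488 copies Nudt21, a subunit of the complex that cleaves mRNA 3′ ends, and its CPM values did not overlap although its raw counts of 304.66, 193.54 and 357.04 against 181.84, 168.17 and 203.73 did. Ube2n-ps1 copies Ube2n, a ubiquitin-conjugating enzyme, whose own change was −0.14 (edgeR adjusted p = 0.0547). The sum of that pair was at −0.09 (adjusted p = 0.256), so its direction was the opposite of the pseudogene's. The calls of Gm7334, Gm7488 and Ube2n-ps1 were each lost without wild-type replicate 1 and without at least 1 knockout library (replicates 2 and 3, replicate 1, and replicates 1 and 3 in that order). DESeq2 did not call Gm7334 or Ube2n-ps1, and limma on TPM did not call Gm7488.

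The 8 largest called falls include 4 members, Gm5989, Gm29761, Gm19428 and Gm17229, whose knockout means of 14, 18.1, 17.8 and 15.9 counts were under 20, so they reached the threshold only through the wild type, where they were high. Gm5989, whose nearest coding gene is the splicing factor gene Crnkl1 at 89.50% identity, had 17.00, 9.44 and 15.42 counts in the knockout and 57.19, 63.77 and 49.22 in the wild type. It was lower in all knockout libraries, with a log2 fold change of −2.07 (SE 0.25, edgeR adjusted p = 8.06e-08), and shared 92.8% of its 50-mers with 5 other genes. Gm20768 had 106.51, 100.78 and 127.35 counts against 276.35, 309.01 and 265.78, without overlap, and fell by 1.37 (SE 0.10, adjusted p = 1.36e-12). Gm29761, which shared 4.6% of its 50-mers, had 23.49, 19.59 and 11.34 counts against 49.66, 44.52 and 39.49 and fell by 1.33 (SE 0.27, adjusted p = 0.0003). Gm19428 (−0.94), Gm17229 (−0.93), Gm18283 (−0.92) and Gm48244 (−0.90) also fell without overlap in CPM. The call of Gm19428 was lost without knockout replicate 3, wild-type replicate 1 or wild-type replicate 3, and that of Gm17229 without knockout replicate 1, wild-type replicate 1 or wild-type replicate 2. DESeq2 called neither, and limma on TPM did not call Gm17229.

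Gm48789, the last of these 8, has the close coding gene Rab33b, a GTPase of the Golgi. Gm48789 shared 92.5% of its 50-mers with 60 other genes. It had 103.20, 73.09 and 121.82 counts in the knockout and 174.33, 178.73 and 173.13 in the wild type, and fell by 0.85 (SE 0.12, edgeR adjusted p = 1.10e-06). Rab33b fell by 1.05 (adjusted p = 1.19e-12) from 21.9 ± 1.52 to 11.5 ± 0.392 TPM (SD, n = 3). The summed pair fell by 1.00 (adjusted p = 2.02e-15). A like case outside the 8 named by size was Gstp-ps, picked here after its values were seen, a copy of the glutathione transferase gene Gstp2: the pseudogene fell by 0.69 (edgeR adjusted p = 0.014) and Gstp2 by 1.16 (adjusted p = 1.22e-15). The call of Gstp-ps was lost on TPM values and when knockout replicate 3 or either of wild-type replicates 1 and 3 was left out.

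**Figure D2:**
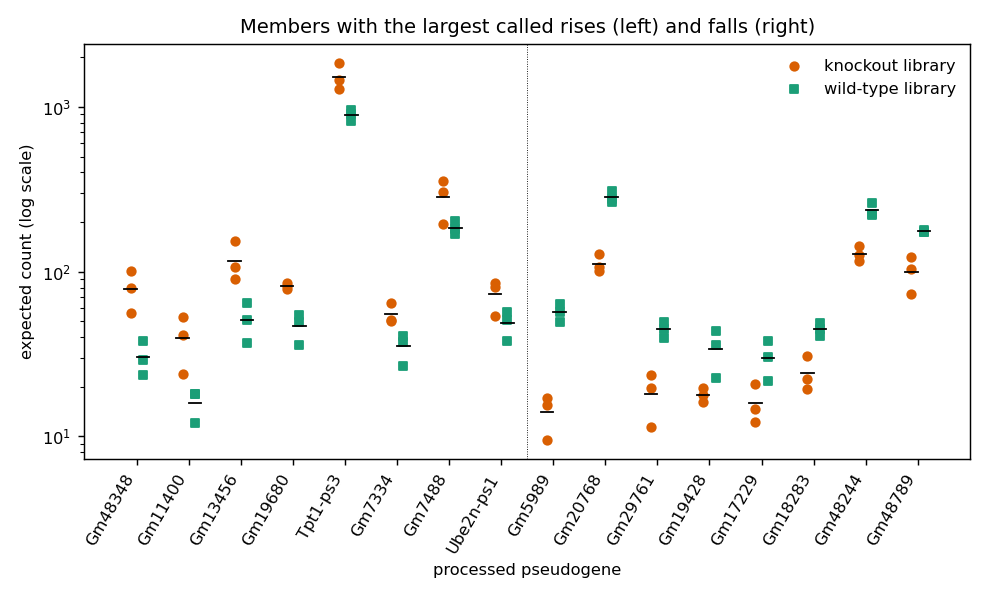
Expected counts per library on a log axis for the 8 members with the largest called rises (left of the dotted line) and the 8 with the largest called falls, circles for knockout and squares for wild-type libraries, with a bar at each group mean. In CPM no member's groups overlap; in these raw counts Gm7488 and Ube2n-ps1 overlap slightly.

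Called members were set beside their coding genes. Of the 58 called members 46 had a close coding gene. Among the 29 lower members of these, the coding gene was lower in 20, higher in 1 and not called in 8. Among the 17 higher members, it was higher in 6, lower in 2 and not called in 9. The 129 close coding genes tested were themselves lower in 64 cases and higher in 9, beside 14.4% and 12.1% of all genes. Across all 156 pairs with both values, the log2 fold changes of pseudogene and coding gene had a Pearson correlation of 0.11. It was 0.30 across the 152 members with counts above 0 in every library, a limit set after seeing the data. Both values are descriptions over pairs that share reads, libraries and in part coding genes.

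The counts of all members close to a coding gene were then added to that gene's, and the sum was tested in their place. Members with the same coding gene therefore share a sum and are not separate checks. By these sums, 25 of the 29 lower members were still called lower and 4 were not called. Of the 17 higher members, 8 were called higher, 8 were not called and 1 was called lower. The last was Gm9531, a copy of Set, a histone chaperone: the pseudogene was at 0.30 (edgeR adjusted p = 0.0358), Set at −0.32 (adjusted p = 7.60e-07) and the sum at −0.27 (adjusted p = 4.15e-06). Of 39 members with a named parent, 4 were higher and 4 lower. Their 35 parents comprised 1 higher and 22 lower (median −0.15). On TPM values limma called 4 of the parents higher and 12 lower. Beside these counts, edgeR called 12.1% of all genes higher and 14.4% lower. For limma on log2(TPM + 1) the shares of all genes were 8.59% and 5.81%.

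Members were also grouped by the chromosome of the coding gene, a grouping made with the chromosome medians in view. All genes tested had a median log2 fold change of 0.17 on chromosome 8 and of −0.12 on chromosome 11. Of 7 tested members whose close coding gene lies on chromosome 8, all of them located on other chromosomes, 5 were higher and 0 lower. Of 14 whose close coding gene lies on chromosome 11, 13 of them located elsewhere, 0 were higher and 6 lower. On log2(TPM + 1) limma called 4 higher and 0 lower of the former and 1 higher and 5 lower of the latter. Among all genes tested, edgeR called 12.1% higher and 14.4% lower, and limma 8.59% and 5.81%. The 6 lower members include Gm11518 and Rpl27-ps3, whose equal counts are a single measurement. Gm4739 and Gm13237, among the 5 higher, are both copies of Hmgb2 and may share its reads. The 6 members located on chromosome 8 itself had 0 higher and 1 lower, and the 8 on chromosome 11 had 1 higher and 2 lower. On chromosome 6, where all genes had a median of 0.16, the 16 resident members had 1 higher and 4 lower, and the 7 with a coding gene there had none called. The part of the chromosome medians in these counts was not tested. Without members on these 3 chromosomes or with a close coding gene on them, 13 members were higher and 26 lower of 149. This exclusion was chosen after seeing the data, and the share of all genes called under it is not given here.

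Of the members tied to chromosome 8, Gm4739 was the most abundant of those called. It had 1781.27, 1418.13 and 1793.04 counts in the knockout and 1196.43, 1109.10 and 1105.01 in the wild type, with no overlap, and rose by 0.52 (SE 0.05, edgeR adjusted p = 4.14e-10). Hmgb2, with 2755.27, 2316.48 and 2828.61 against 2049.76, 1971.52 and 1977.09 counts, rose by 0.37 (adjusted p = 1.64e-07). Gm13237, the other Hmgb2 copy, rose by 0.43 (edgeR adjusted p = 2.58e-06). Of the remaining 3, Gm6158 (0.40) copied Cnot1, the scaffold of the CCR4-NOT deadenylase. Gm14494 (0.54) copied Tomm20, an import receptor of the outer mitochondrial membrane, and Gm7488 (0.59) copied Nudt21. The sums with the coding gene rose as well, by 0.27 to 0.42, where Gm4739 and Gm13237 share a sum with Hmgb2.

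On the side of chromosome 11, Gm7666 copies Phb, a prohibitin of the inner mitochondrial membrane. It had 1442.64, 1163.94 and 1285.56 counts in the knockout and 1682.15, 1877.85 and 1852.64 in the wild type, with all knockout libraries lower, and fell by 0.50 (SE 0.05, edgeR adjusted p = 4.05e-09). Phb fell by 0.41 (adjusted p = 2.63e-08). The others were Gm15772, Gm11518 and Rpl27-ps3 (Rpl27, −0.27 each, the same counts), Eif4a-ps4 (Eif4a1, an RNA helicase of translation initiation, −0.18) and Gm10177. The call of Eif4a-ps4 was lost on TPM values and without replicate 1 or 2 of either genotype. Gm10177 copies Sec61g, a subunit of the protein channel of the endoplasmic reticulum, had 837.44, 676.19 and 856.28 against 1023.17, 942.78 and 974.90 counts, and fell by 0.34 (adjusted p = 6.76e-06).

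**Figure D3:**
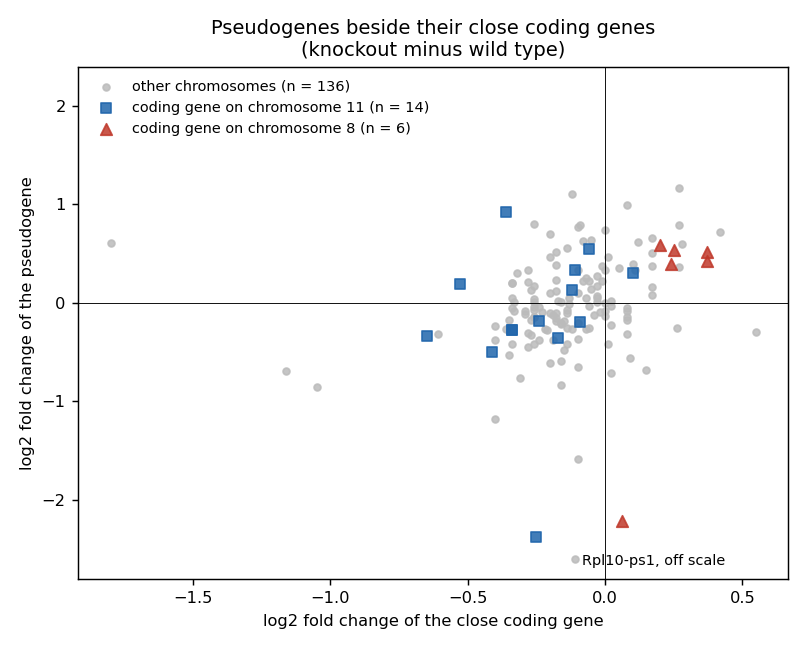
Log2 fold change of each pseudogene against that of its close coding gene (156 pairs, knockout minus wild type, edgeR), with coding genes on chromosome 8 as triangles and on chromosome 11 as squares. Of the 6 triangles, the 5 called ones sit at 0.40 to 0.59 and Gm12918 lies below −2; Rpl10-ps1 is off scale and drawn at the lower edge.

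Of 8 copies of genes of mitochondrial energy production, 6 were lower and 1 higher, beside 14.4% and 12.1% of all genes. Their median was −0.30. Their 8 coding genes comprised 5 lower and 1 higher, at a median of −0.21. Gm10221, a copy of the ATP synthase subunit gene Atp5l, had 281.78, 276.04 and 304.65 counts in the knockout and 422.43, 399.12 and 400.60 in the wild type. Its groups did not overlap, and it fell by 0.53 (SE 0.08, edgeR adjusted p = 2.17e-06), with Atp5l at −0.35 (adjusted p = 1.46e-06). Gm4459, a copy of the complex I gene Ndufab1, fell by 0.59 (edgeR adjusted p = 6.05e-05). Ndufb4c (Ndufb4, −0.26), BC002163 (Ndufs5, −0.30) and Gm12338 (the cytochrome oxidase gene Cox7c, −0.18) were lower too, and Gm6969 (Cox7a2l, 0.38) was higher. On log2(TPM + 1) limma called 3 of the 8 members lower and 0 higher, beside 5.81% and 8.59% of all genes. It called 1 coding gene in each direction. The calls of Gm12338, BC002163 and Gm6969 were lost with DESeq2 as well, and each was lost without 2 or more of the libraries in turn.

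Gm10175 was the only one of the 38 lower members whose close coding gene was called higher. It copies Atp5g2, which codes for the membrane ring of the ATP synthase, and the 2 are identical over the aligned sequence, with all 50-mers of the pseudogene shared. The pseudogene had 2094.06, 1971.41 and 2234.11 counts in the knockout and 2408.46, 2645.59 and 2539.19 in the wild type, all knockout libraries being lower, and fell by 0.29 (SE 0.05, edgeR adjusted p = 9.32e-06). Atp5g2 had 386.94, 262.59 and 357.89 against 258.54, 226.41 and 189.81 counts, all knockout libraries being higher, and rose by 0.55 (SE 0.10, adjusted p = 0.000529). The share of the pair assigned to the pseudogene was 84.4% to 88.2% in the knockout and 90.3% to 93.0% in the wild type, and the sum fell by 0.20 (adjusted p = 0.000408).

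Of 10 copies of chromatin and HMG genes, 4 were higher and 1 lower (median 0.28), beside 12.1% and 14.4% of all genes. Their 7 coding genes comprised 1 higher and 5 lower (median −0.18). The higher members were the pair from Hmgb2, Gm9531 from Set, and Gm15387 from Hmgb1. Gm15387 rose by 0.23 (edgeR adjusted p = 0.00546) while Hmgb1 fell by 0.18 (adjusted p = 0.00748). The sum of Hmgb1 with all its close members was at −0.11 (adjusted p = 0.0779). The lower member, Gm10182, copies Hmgn2, a nucleosome-binding protein gene that also fell (−0.38 against −0.19). On log2(TPM + 1) limma called 3 of the members higher and 0 lower, beside 8.59% and 5.81% of all genes. It called 1 coding gene in each direction. The call of Gm9531 was lost when any of knockout replicates 2 and 3 and wild-type replicates 1 and 3 was left out, that of Gm15387 without wild-type replicate 3, and that of Gm10182 without knockout replicate 1 or wild-type replicate 3. DESeq2 did not call Gm15387 or Gm10182, and limma on TPM did not call Gm9531 or Gm10182. The difference between members and coding genes was not tested.

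The remaining groups were small or mixed. Of 5 copies of translation factor genes 1 was higher and 1 lower, and of 7 copies of RNA-binding protein genes 1 was higher and 2 were lower. The 5 copies of Gapdh, a glycolytic enzyme gene, had 0 called in either direction with a median of 0.38, while Gapdh itself rose by 0.17. Among 62 tested copies of other genes 9 were higher and 9 lower. Of those whose name gives the parent, the most abundant was Tpt1-ps3, followed by Oaz1-ps, a copy of the ornithine decarboxylase antizyme gene Oaz1, at −0.17 (edgeR adjusted p = 0.161) beside −0.35 for Oaz1 (adjusted p = 9.06e-07). Morf4l1-ps1, a copy of a chromatin reader gene, was chosen for mention after its values were seen: it rose by 0.47 (adjusted p = 6.57e-06) while Morf4l1 was at 0.01 (adjusted p = 0.903). The summed pair was at 0.09 (edgeR adjusted p = 0.113), so the call of Morf4l1-ps1 was not kept in the sum. It shared 93.2% of its 50-mers with other genes. The 43 members without a close coding gene had 3 higher and 9 lower (median −0.18). Of the 29 transcribed processed pseudogenes 2 were higher and 9 lower, and of the 171 other processed pseudogenes tested 18 were higher and 29 lower. Beside these counts, 12.1% of all genes tested were higher and 14.4% lower.

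How much of a member's sequence is shared had no steady relation to how often it was called. Of the 26 members with under 25% of their 50-mers in other genes, 2 were higher and 6 lower, which is 30.8% beside 26.5% of all genes. The share called was 9.52% of 21 members from 25% to 50%, 33.3% of 33 from 50% to 75%, 28.8% of 66 from 75% to under 100%, and 33.3% of the 54 tested with all 50-mers shared. The groups differ in abundance, with median mean counts of 63.7 in the first and 489 in the last. All 6 members listed at 0 in some library had at least 75% of their 50-mers in other genes.

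**Figure D4:**
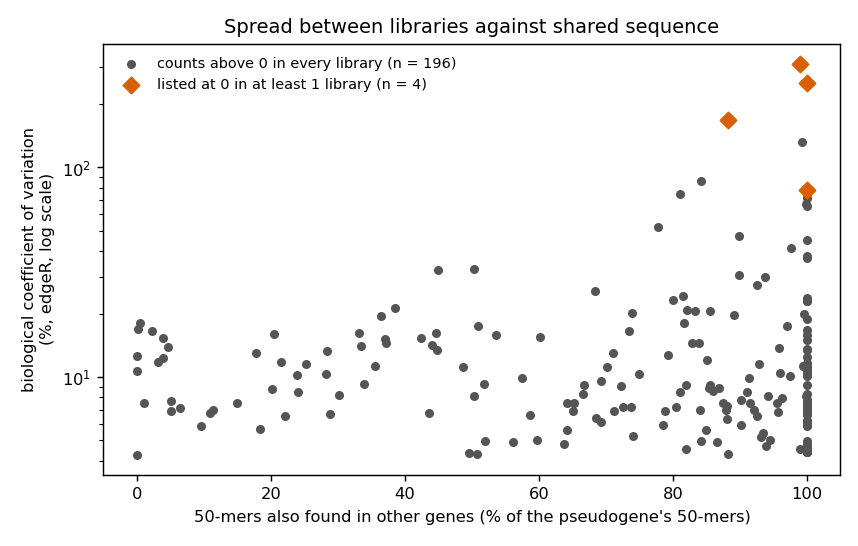
Biological coefficient of variation (percent, edgeR, log axis) of the 200 tested members against the percentage of their 50-mers found in other genes. The 4 tested members listed at 0 in at least 1 library, drawn as diamonds, lie at 77.9% to 313%, all at 88.2% sharing or more; the other members at low sharing stay below these values.

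These 6 members were singled out after their values were seen. Rpl10-ps1, a copy of the large-subunit protein gene Rpl10, was listed at 0 in all 3 knockout libraries and had 300.19, 455.11 and 68.67 counts in the wild-type libraries. The groups did not overlap, but it was not called (edgeR adjusted p = 0.17). Rpl10 had 8947.06 to 11349.18 counts in the knockout and 10253.43 to 11468.26 in the wild type, so the pseudogene's counts made up 0.61% to 3.82% of the pair in the wild type. The sum of both was at −0.15 (adjusted p = 0.00602). An estimate of 0 can arise from the division of reads, so no fold is given.

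Gm12918, a copy of Rpl13, had 0, 473.54 and 0 counts in the knockout and 935.72, 1175.54 and 122.74 in the wild type, with overlapping groups and an edgeR adjusted p of 0.406. The sum with Rpl13 was at 0.03 (adjusted p = 0.661). Gm8430, a copy of Rps27a, had 0, 188.89 and 27.85 against 539.03, 45.80 and 537.42, also overlapping. Gm4294, Gm13835 and Dynlt1-ps1 were at 0 in libraries of both genotypes. Gm10288, a copy of Rpl11, was at 0 in no library and had 189.70, 496.73 and 181.92 against 823.24, 942.71 and 827.64 counts, with no overlap and an edgeR adjusted p of 0.103, while Rpl11 was at −0.10 (adjusted p = 0.102).

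**Figure D5:**
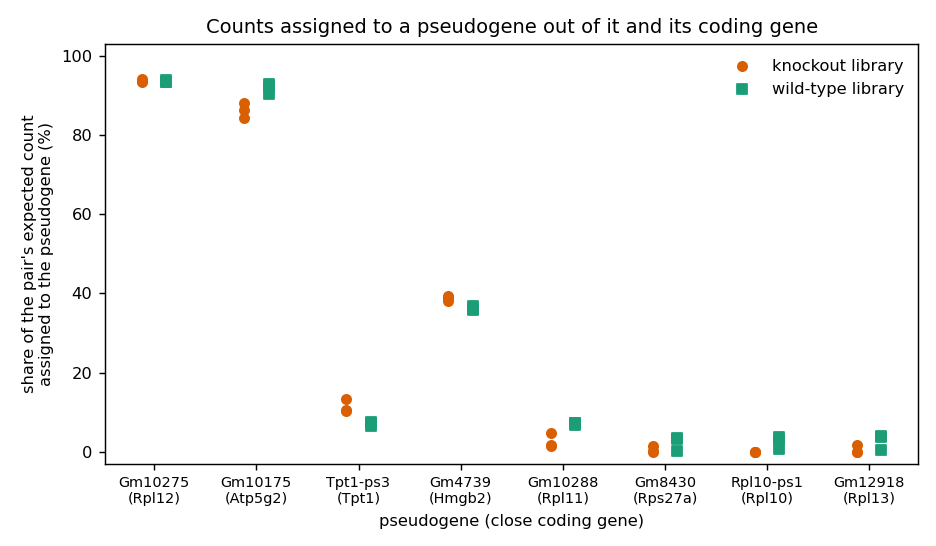
Share of the expected counts of a pseudogene and its close coding gene that was assigned to the pseudogene, in percent, per library (circles knockout, squares wild type), for 8 pairs. The share is steady for Gm10275 at 93.3% to 94.1%, lower in the knockout for Gm10175 and Gm10288, higher in the knockout for Tpt1-ps3 and Gm4739, and 0% in all knockout libraries for Rpl10-ps1.

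Some members lie inside other genes. An annotated gene overlapped 66 of them, and 33 lay within a gene of the same strand, 31 of these in an intron. Of 16 called members with such a host, 9 hosts were tested, and 3 of them were called in the direction of the member: Sfi1 with Gm11400, Psmd13, a proteasome subunit gene (−0.28, edgeR adjusted p = 6.88e-05), with Gm15542 (−0.42), and Fyb (−0.89, adjusted p = 0.0402) with Gm7666. The opposite direction was called in 0, and 26.5% of all genes were called in either direction. Gm7666 overlaps an exon of Fyb, so they may share reads, and the part of this was not tested. Whether the authors' counting used strand is not given in the sources used here.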

How the data were processed

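Poly(A)-selected RNA was measured in 3 Hoxd12-/- and 3 wild-type ESC libraries, grouped and numbered by their titles. Per the file headers, the authors deposited for each gene an expected count, a TPM and an FPKM value; TPM and FPKM are scaled by length and depth, and FPKM entered no test. Per the submitters' processing notes, Bowtie 0.12.2 was used, with mm10 and mm8 listed as builds and no step named for either. Which quantifier, annotation and strand setting were used is not given in the sources used here. Every one of the 55450 identifiers matched GENCODE M21, the source of the gene types and GRCm38 coordinates.

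Expected counts were rounded and tested in R 4.3.3 with edgeR 4.0.16 (TMM, filterByExpr, robust quasi-likelihood fit, group as the only term). CPM values use TMM-scaled library sizes. In simulated data of this design with 12730 genes, 16% of genes changed 1.2-fold were recovered, 66% at 1.5-fold and 98% at 2-fold. Every gene was simulated at the common coefficient of variation of 6.74%, with 50 changed genes per fold. The members' median was 9.26%, so these rates do not describe recovery among the members. Close coding genes were found with BLAST 2.17.0 at an E-value of 1e-10 against GENCODE M21 coding transcripts, and shared 50-mers by exact match. The length of 50 is a choice, since the read length is not given in the sources used here. Alternatives were DESeq2 1.42.0, limma 3.58.1 on log2 of TPM with 1 or 0.1 added, other scalings and filters, count thresholds of 10 and 50, a replicate block, each library left out, and counts summed with the coding gene.

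The members and lists were chosen with earlier results of these data known. Named are the 8 called members with the largest change in each direction and no overlap in CPM, the 8 most abundant, the 2 on each side of the threshold, 3 called transcribed pseudogenes with the smallest p, the 2 most abundant of each class of parent gene given by name and the named parents. Other named members illustrate counts. The 11 X-linked pseudogenes with a mean of 20 or more were left out by the rule.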

Additional observations from a re-analysis of the deposited data

How the results depend on the processing

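Of the 58 called members, 28 (11 higher, 17 lower) were called in the same direction under all 13 alternatives of model, scaling, filter, block and left-out library; of the 58, DESeq2 called 40 and limma on TPM 34. DESeq2 called 15 members higher and 29 lower, beside 5.44% and 9.99% of all genes. The TPM fits gave 20 lower members at either pseudocount, 4 parents higher and 12 lower, and a median of 0.02, where the median of all genes was 0.10 or 0.11. Leaving out each library in turn gave 14 to 20 higher and 29 to 51 lower members, 1 to 2 parents higher and 15 to 22 lower, and a median of −0.11 to −0.07. The 2 higher parents and the 51 lower members came without knockout replicate 2. Of alternatives added after seeing the data, leaving out chromosomes 6, 8 and 11 gave 13 higher members, and keeping only members with at most 25% shared 50-mers gave 2 higher and 6 lower of 26. Summed with the coding gene and all its close members, the direction turned for Ube2n-ps1 (−0.09), Rps2-ps10 (0.01), Gm9762 (0.04, a copy of Ube2d2a), Gm9531 (−0.27) and Gm15387 (−0.11). In these the coding gene holds most of the summed counts. On TPM values Rps16-ps2 turned to 0.10 (limma adjusted p = 0.0427 and 0.0421); the cause was not tested. Deviations from the group means correlated at 0.00359, 0.0413 and 0.0244 between same-numbered libraries. Between differently numbered libraries the values ran from -0.0608 to 0.0422. Such deviations cancel within each group by construction, so they cannot exclude a pairing by replicate number. With the replicate number as a block, 21 members were higher and 42 lower. The shares of all genes called under the block, the left-out libraries and the left-out chromosomes are not given here. The member counts under these settings thus have no background beside them. How many of all genes called by edgeR kept their call with DESeq2, limma or all 13 alternatives is not given either. The 28, 40 and 34 of the 58 members are therefore no trait particular to the members. For a member with all 50-mers shared, a change at the pseudogene and a change at its relatives cannot be told apart.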
